A study of Homo sapiens with 4 samples.

Results

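The zinc finger genes of chromosome 19q13.41 form a run of C2H2 genes on the long arm of chromosome 19. Their members were fixed as a list of 37 symbols, from ZNF577 to ZNF813 in chromosome order, and all 37 were found among the 28775 promoters of the count table through their NCBI Gene IDs. All 37 also passed the filter on low counts. The readout was ATAC-seq, where exposed DNA is cut and tagged by Tn5 transposase, in the established human embryonic kidney line HEK293T. MORC2 KO cells and wild-type (WT) cells gave 2 libraries each, with no treatment or time course. The KO libraries came from bulk Cas9-edited pools made with guide 1 and guide 2, so that guide and KO replicate cannot be told apart, and unedited cells may remain in a pool.

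C2H2 zinc fingers are short zinc-binding folds that read DNA, and most proteins of this cluster carry an array of them behind a KRAB domain. KRAB binds the corepressor TRIM28, which brings the H3K9 methyltransferase SETDB1 and HP1 proteins to the bound DNA, often a transposable element. The genes arose by tandem duplication in primates and earlier mammals, so that some of them resemble each other in sequence, their promoters included. Zinc finger genes are themselves known to be packaged with H3K9me3 over their bodies, and MORC2, an ATPase that compacts DNA, works with the HUSH complex in H3K9me3-dependent silencing. The comparison of MORC2 KO with WT asked whether loss of MORC2 changed how open these promoters were.

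Each library held 9435801 to 15152636 promoter counts, of which 6119609 to 12036024 were nuclear, KO replicate 2 being the deepest. Mitochondrial rows took 20.6% of the count in that library and 31.8% to 35.1% in the other 3. Promoters of kidney and neural genes typical of the line were accessible, with LHX1 at 19.1 ± 1.78 CPM, the normalised count scaled to library size by TMM, in WT cells (SD, n = 2), and PAX2, EYA1, SALL2 and NEFL between 3.91 and 33.8. By contrast PTPRC, CD3E and ALB, marker genes of lymphocytes and hepatocytes, had 1.71 to 2.36 CPM, and LYZ, CD14 and APOA1 had 4.01 to 24.8 CPM, so that openness of a promoter does not by itself separate cell types here. In KO, LYZ had 2.51 ± 0.434 CPM against 4.01 ± 0.50 in WT, the other markers named here differing by a smaller fold, with no adjusted p under 0.05 (the lowest was 0.119, edgeR's quasi-likelihood test).

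The members were split into 2 kinds by their level in HEK293T cells, although the levels formed a gradual order. Olfactory receptor promoters, which belong to genes of the nasal epithelium, served as a scale of closed chromatin. Over the 4 libraries the 400 of them had a median of 1.92 CPM and a 95th percentile of 3.84 CPM. Of the 37 members, 26 lay above that limit and are called open below, and 11 lay at or under it. The limit was chosen after the values had been seen. Of the markers above, SALL2 lay barely over it, at 3.84 and 3.99 CPM in WT and 4.04 and 4.05 CPM in KO. LYZ, by its mean over the 4 libraries, lay under it. ZNF836, at a mean of 4.01 CPM, was the member just above the limit and ZNF610, at 2.90 CPM, the member just below. In WT replicate 1 ZNF836 had 3.22 CPM, under the limit and below both WT values of ZNF610, 3.32 and 3.43 CPM. Promoter rows are windows of a nominal 2 kb around a gene's start, so that CPM can be compared between them without a correction for length.

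ZNF616 had the most accessible promoter of the cluster. Its fragments numbered 315 and 469 in the KO pair and 269 and 250 in the WT pair (replicates 1 and 2), or 28.9, 27.5, 27.9 and 27.7 CPM. ZNF320 followed at 29.2 and 26 CPM in KO, beside 22.7 and 25.3 CPM in WT. ZNF888 had 26.8 and 23 CPM in KO and 21.4 and 20.8 CPM in WT. The 4 libraries of each of these genes lay far above the olfactory limit. ZNF701, ZNF841, ZNF432 and ZNF611, the last a binder of SVA retrotransposons, came next with means of 19.7 to 22.3 CPM. The order was a gradual one: of the 36 pairs of members adjacent in rank by mean CPM, 1 pair, ZNF28 above ZNF468, did not overlap, with every library of the one above every library of the other.

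At the other end stood ZNF677, a gene often silenced by promoter methylation in tumours. It was counted at 21 and 28 fragments in KO and at 12 and 16 in WT, or 1.93, 1.64, 1.25 and 1.77 CPM, below the median olfactory receptor promoter in 3 of 4 libraries. ZNF347 had 1.65 and 2.11 CPM in KO and 1.66 and 1.77 CPM in WT. ZNF880 had 2.11 and 2.58 CPM in KO and 2.39 and 1.11 CPM in WT, where the last value rests on 10 fragments. From ZNF616 to ZNF677 the mean level spanned 17-fold.

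Members at the olfactory level were not scattered evenly. Going along the chromosome, 12 open members from ZNF577 to ZNF480 were followed by 5 at the olfactory level, ZNF610, ZNF880, ZNF528, ZNF534 and ZNF578. ZNF534 is a KRAB gene known from pluripotent stem cells, where it acts on HERVH elements. Then came 4 open members from ZNF808, a repressor of MER11 elements required for pancreas development, to ZNF611. ZNF600 stood alone at the olfactory level, at 2.57 and 2.17 CPM in KO and 3.84 and 1.88 CPM in WT. After 6 open members from ZNF28 to ZNF160 there were 4 more at the olfactory level, ZNF415, ZNF347, ZNF665 and ZNF677. ZNF845, ZNF525, ZNF765 and ZNF761 were open, and ZNF813 closed the cluster at the olfactory level. The plot of normalised counts by member shows both genotypes. The mean of each genotype fell on the same side of the limit for every member, but these are the libraries that set the grouping.

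**Figure D1:**
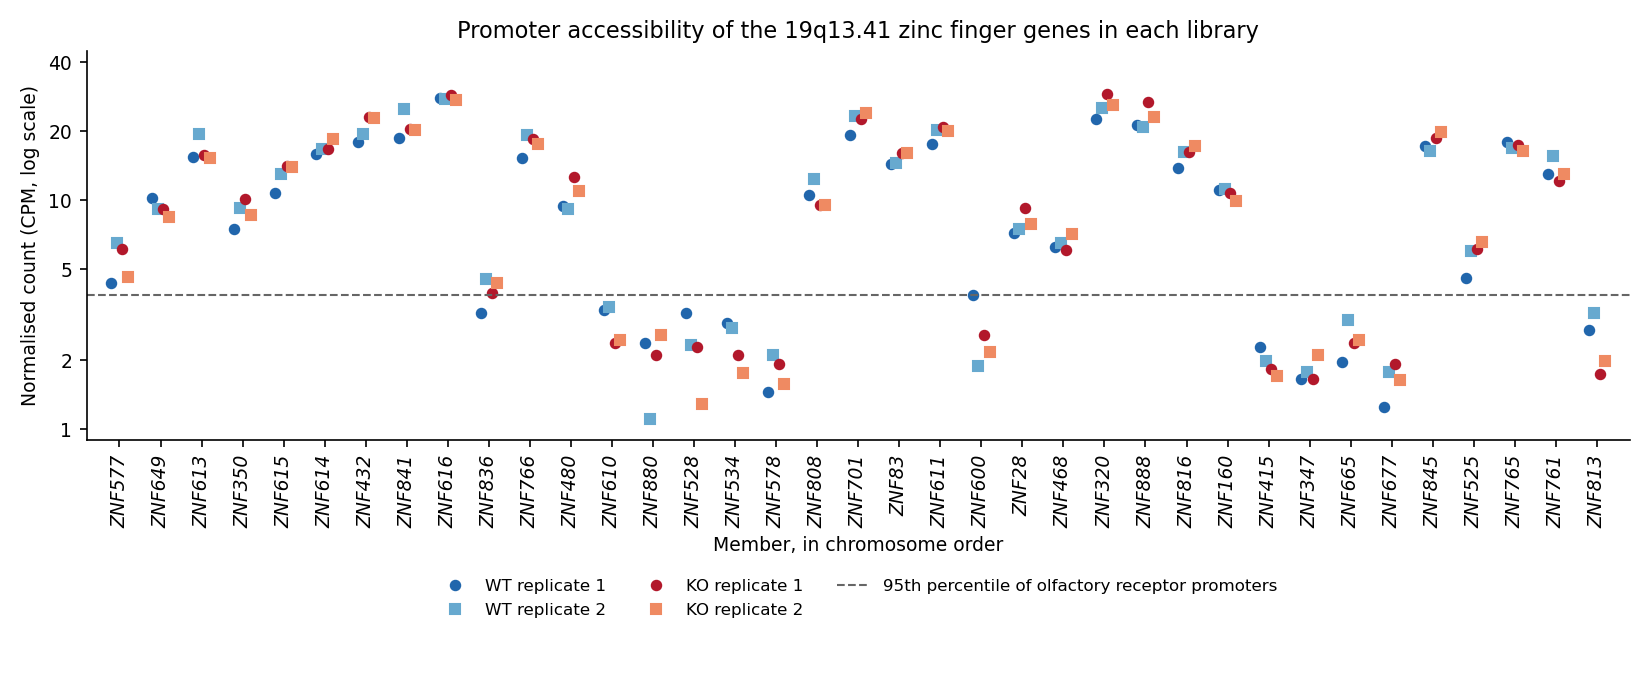
Normalised promoter counts (CPM, log scale) of the 37 members in chromosome order, with 1 point for each of the 2 WT and 2 KO libraries. The dashed line marks 3.84 CPM, the 95th percentile of olfactory receptor promoters: the runs ZNF610 to ZNF578 and ZNF415 to ZNF677 lie below it in all 4 libraries, while ZNF616 and ZNF320 lie highest.

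Several rows could not be assigned to a single gene. ZNF83 and LOC122539214, ZNF816 and the readthrough gene ZNF816-ZNF321P, ZNF765 and ZNF765-ZNF761, and ZNF761 and the pseudogene TPM3P9 had identical counts in every library, so that each pair is a single measurement. ZNF83 had 16.1 and 16.1 CPM in KO and 14.4 and 14.6 CPM in WT, and ZNF816 had 16.2 and 17.2 CPM in KO and 13.8 and 16.3 CPM in WT. ZNF765 had 17.4 and 16.5 CPM in KO and 18 and 16.9 CPM in WT, and ZNF761 had 12.2 and 13 CPM in KO and 13 and 15.6 CPM in WT. Only the groups of ZNF83, among these 4, did not overlap. ZNF577 and ZNF649-AS1 differed by at most 1 fragment, as did ZNF528 and its antisense partner ZNF528-AS1. ZNF577 had 6.14 and 4.63 CPM in KO and 4.36 and 6.53 CPM in WT, with overlap. A fragment carries no strand information, and the 2 rows of such a pair cannot be told apart. The promoters of the neighbours ZNF432 and ZNF841 are separate, although their counts were within 25% of each other in every library and differed by up to 51 fragments. ZNF841 had 20.5 and 20.2 CPM in KO and 18.8 and 25.1 CPM in WT.

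Promoter sequence was compared between the 2 kinds as a description, without a test. RefSeq promoter windows on GRCh38.p14, running from 250 bases before to 50 after a gene's start, were at hand for 30 of the 37 members, 22 of them open and 8 at the olfactory level. Those of ZNF28, ZNF480, ZNF600, ZNF610, ZNF649, ZNF665 and ZNF888 were not used here. For the 7 members with several windows the most upstream was taken. The motif CCGGAAG, a core site of ETS family transcription factors, searched on both strands, was found in 19 of 30 member windows (63.3%), against 12.9% of 19553 promoters and 41.9% of 186 windows of other zinc finger genes on chromosome 19. Every match was on the sense strand and within 50 bases of the start. The motif was found in 12 of 22 open members and in 7 of 8 at the olfactory level. GC content had a median of 65.5% in the former and 58.8% in the latter.

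To let the shared element and its flanks be seen beside the levels, 30 bases around the match nearest the start are given for 12 members, first 7 open and then 5 at the olfactory level. Sequences are from RefSeq, 5′ to 3′ on the gene's strand, and capitals mark CCGGAAG.
ZNF841 (chr19:52095744-52095773, minus strand): tttcctgcacacCCGGAAGcagatcgcgct
ZNF616 (chr19:52139917-52139946, minus strand): tttccgtcactcCCGGAAGcagattgcgcc
ZNF808 (chr19:52527660-52527689, plus strand): attaacgcaaacCCGGAAGcggatcgggtg
ZNF611 (chr19:52735023-52735052, minus strand): attaacgcaaacCCGGAAGcggatcgggtg
ZNF320 (chr19:52897671-52897700, minus strand): attggcatagacCCGGAAGcggatggcagg
ZNF816 (chr19:52962858-52962887, minus strand): attggcacagacCCGGAAGcggatggcgtg
ZNF845 (chr19:53333741-53333770, plus strand): attcgcgcaaacCCGGAAGcggatcgcatg
ZNF528 (chr19:52397851-52397880, plus strand): tttccggtagacCCGGAAGccgattgcagg
ZNF534 (chr19:52429140-52429169, plus strand): tttcctgcagacCCGGAAGtcgagatcatg
ZNF578 (chr19:52453555-52453584, plus strand): tttcctgaagacCCGGAAGccgatcgcgtg
ZNF677 (chr19:53254853-53254882, minus strand): gttcctgccgacCCGGAAGcggatctcgcg
ZNF813 (chr19:53467737-53467766, plus strand): attcgcgaaaacCCGGAAGcggatcgcgtg

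In the printed members, a choice from the 19 with a match, parts of the flanks were shared as well as the motif. ZNF432, not printed there, had a match with unlike flanks. ZNF808 and ZNF611 had the same 30 bases, and their whole windows were 87.3% identical, the highest value between any 2 members. Their levels still differed, at a mean of 10.5 CPM for ZNF808 and 19.7 CPM for ZNF611, and the 4 libraries of one did not overlap those of the other. ZNF813, at 2.41 CPM, was 83% identical to ZNF83, at 15.3 CPM, and 82.7% identical to ZNF845, at 18.1 CPM. Hence promoters that are close in sequence lay on either side of the olfactory limit. The highest identity of a member to any other ranged from 60.7% to 87.3%, with a median of 70.7%. The lowest value between any 2 members was 55%. Identity to promoters outside the cluster was not computed, so that the lower values of this range cannot be read as shared ancestry.

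A word of 12 bases, ACCCGGAAGCGG, which contains the motif on the sense strand, was found in 9 of 30 members, 6 open and 3 at the olfactory level, in 24 of all 19553 windows (0.123%) and in 0 of the 186 windows of other chromosome 19 zinc finger genes. This word was picked from the members' own windows. Other motifs were also searched on both strands. GGGCGG, the GC box bound by SP family factors, was in 26 of 30 members (86.7%), including all 8 at the olfactory level. It was in 53.5% of all promoters and 64% of the windows of other chromosome 19 zinc finger genes. TATAAA was in 0 of 30 (10.1% of all promoters, 2.69% of those windows). CCAAT was in 7 of 30 (36.2% of all promoters, 59.1% of those windows). GATGGCG, part of the YY1 site, was in 5 of 30, all of them open (5.25% of all promoters, 5.38% of those windows). GCGCATG and CACGTG were each in 1 of 30, against 5.53% and 8.29%. These matches describe the letters in the windows and say nothing of binding.

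Member promoters were rich in CpG whether accessible or not. The ratio of observed to expected CpG had a median of 0.831 in the 22 open members and 0.89 in the 8 at the olfactory level. Over all promoters at or under the olfactory limit it was 0.227, and over those above the limit 0.793. Over the 186 windows of other chromosome 19 zinc finger genes, of either level, it was 0.746, with a median of 19 CpG. The members at the olfactory level held a median of 23 CpG in 300 bases, compared with 3 in all promoters of that level. ZNF528 had the highest ratio of the 30, 1.13, at 2.28 CPM. ZNF320, second in accessibility, had one of 0.641. Across the 30 members Spearman's rho between the ratio and the mean CPM was -0.233, as a description over promoters of shared ancestry and the same libraries. The plot of CpG content against level shows both kinds of promoter at the same CpG ratios.

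**Figure D2:**
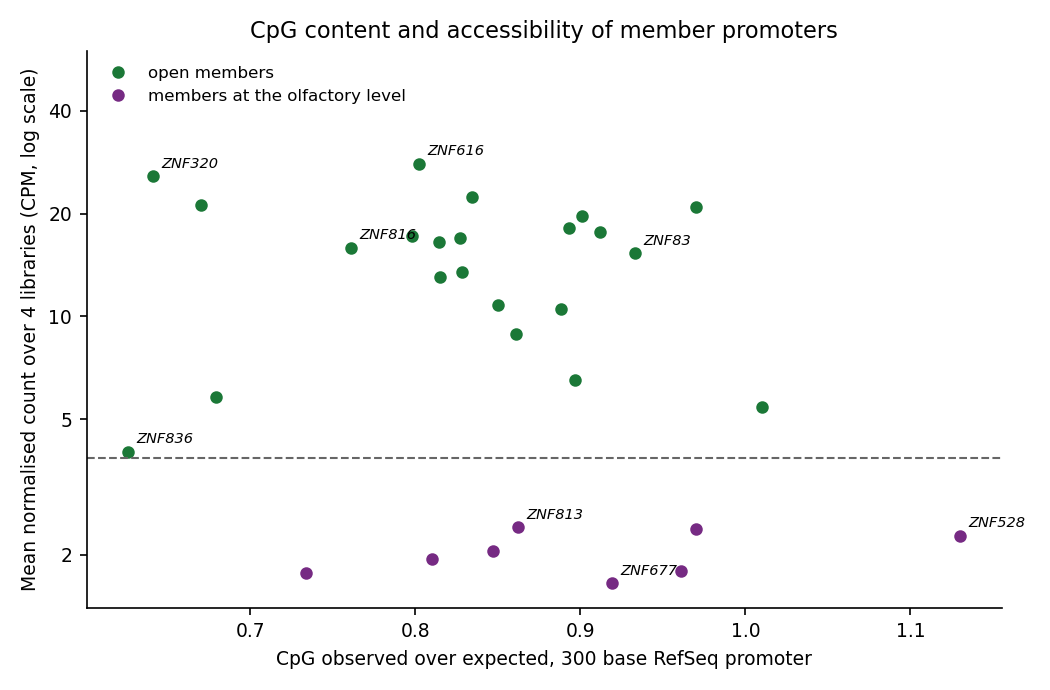
Mean CPM over 4 libraries (log scale) against the ratio of observed to expected CpG in the RefSeq promoter window, 1 point for each of 30 members. Members below the dashed line at 3.84 CPM span ratios of 0.734 to 1.13 and open members ratios of 0.626 to 1.01.

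As an example of 2 promoters of each kind, the 150 bases before the start are given with each CpG in capitals, for ZNF432 and ZNF816, which are open, and for ZNF528 and ZNF813, which are at the olfactory level. They hold 19, 14, 19 and 12 CpG.
ZNF432 (chr19:52048839-52048988, minus strand): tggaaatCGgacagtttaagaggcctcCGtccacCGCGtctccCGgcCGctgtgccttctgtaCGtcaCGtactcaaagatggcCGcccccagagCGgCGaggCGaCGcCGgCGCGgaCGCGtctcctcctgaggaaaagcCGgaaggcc
ZNF816 (chr19:52962882-52963031, minus strand): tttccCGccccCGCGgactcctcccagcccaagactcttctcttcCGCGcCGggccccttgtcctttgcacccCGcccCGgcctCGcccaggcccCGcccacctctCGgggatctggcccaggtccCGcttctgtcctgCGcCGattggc
ZNF528 (chr19:52397699-52397848, plus strand): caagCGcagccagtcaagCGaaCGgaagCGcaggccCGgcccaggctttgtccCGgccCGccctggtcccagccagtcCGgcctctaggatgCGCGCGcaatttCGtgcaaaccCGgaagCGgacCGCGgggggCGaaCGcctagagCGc
ZNF813 (chr19:53467583-53467732, plus strand): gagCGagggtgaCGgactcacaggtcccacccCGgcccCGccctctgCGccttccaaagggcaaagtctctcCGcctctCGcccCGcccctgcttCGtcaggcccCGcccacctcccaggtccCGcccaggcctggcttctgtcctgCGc
The fragment counts are on the assembly CHM13, whose promoter positions were not used here, and the start that a count window was centred on is not known for members with several starts.

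No promoter of the cluster passed the test between MORC2 KO and WT. Of 37 members, 0 had an adjusted p under 0.05 in edgeR's quasi-likelihood test, higher or lower, whereas over all 27647 tested promoters 4.45% did, 3.45% higher and 0.995% lower in KO. The paper tested counts in small windows and summarised them to promoters. It reported far fewer genes as differentially accessible between KO and WT, and several zinc finger genes were among them. The share over all promoters given here thus rests on the counts and the fit used here. Taking p under 0.05 without adjustment, 7 members qualified against 20.3% of all promoters, 4 with higher values in KO (background 11.5%) and 3 with lower values (background 8.87%). By limma-trend 0 members were called and 6 had an unadjusted p under 0.05, with 717 and 5266 of the 27647 promoters. By DESeq2 without its independent filter both member counts were 0, but that test called 7 promoters in all and gave 1426 an unadjusted p under 0.05, so its 0 says little of the members. The median log2 fold change of the 37 members was 0.071, that of all promoters -0.017.

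ZNF432, a KRAB zinc finger protein linked to the DNA damage response, came closest to the threshold. The KO pair counted 253 and 390 fragments and the WT pair 172 and 176, or 23.2 and 22.9 CPM against 17.9 and 19.5 CPM. The genotypes did not overlap. On the log2 scale KO minus WT was 0.30 (SE 0.11, edgeR adjusted p 0.0701), the adjusted p running from 0.0569 to 0.978 under the alternatives that gave one. ZNF480 had the largest fold change of the open members, 0.33 (SE 0.15, adjusted p 0.185), with means of 11.8 ± 1.15 CPM for KO and 9.32 ± 0.182 CPM for WT (SD, n = 2 each). Its 2 KO libraries, at 12.7 and 11 CPM, did not overlap those of WT, at 9.45 and 9.19 CPM.

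The neighbours ZNF320 and ZNF888 had unadjusted p-values of 0.0474 and 0.0309 in the edgeR fit, with log2 fold changes of 0.19 and 0.22 and adjusted p-values of 0.239 and 0.195. In each the KO libraries lay above the WT libraries, although ZNF320 in KO replicate 2, at 26 CPM, was close to WT replicate 2, at 25.3 CPM. ZNF615 and ZNF525 had log2 fold changes of 0.24 (SE 0.13) and 0.28 (SE 0.20), again without overlap of the groups. ZNF615 had 14.1 and 14 CPM in KO and 10.8 and 13 CPM in WT. ZNF525 had 6.14 and 6.57 CPM in KO and 4.57 and 5.98 CPM in WT. Neither passed the test, with adjusted p-values of 0.282 and 0.419 in edgeR.

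Among members with lower values in KO, ZNF528 had the largest fold change, -0.72 (SE 0.30, edgeR adjusted p 0.152). It held 25 and 22 fragments in KO and 31 and 21 in WT, or 2.29 and 1.29 CPM against 3.22 and 2.33 CPM. The groups were barely separate, and the value depended on KO replicate 2, without which it was -0.27. ZNF813 had 1.74 and 1.99 CPM in KO and 2.7 and 3.21 CPM in WT, which gave -0.64 (SE 0.29, adjusted p 0.192) on the log2 scale. ZNF534 had 2.11 and 1.76 CPM against 2.91 and 2.77 CPM, or -0.58 on that scale (SE 0.29, adjusted p 0.245). The KO and WT libraries of both did not overlap. ZNF610, with 2.38 and 2.46 CPM against 3.32 and 3.43 CPM, stood at -0.47 (SE 0.27, adjusted p 0.303), and ZNF600 at -0.31 (SE 0.28), with WT replicate 1 above and WT replicate 2 below both KO libraries.

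Of the 3 members at the olfactory level with values above 0, ZNF880 had the highest fold change of the cluster, 0.43 (SE 0.32, edgeR adjusted p 0.442). Its WT libraries held 23 and 10 fragments and its KO libraries 23 and 44. Without WT replicate 2 the log2 fold change was 0.0035 and without WT replicate 1 it was 1.11, so that the value rests on the WT pair. The remaining members had log2 fold changes from -0.29 to 0.22. They include ZNF350, a partner of BRCA1 also known as ZBRK1, with 10.1 and 8.62 CPM in KO and 7.48 and 9.30 CPM in WT, where the groups overlapped. ZNF808 had 9.54 and 9.50 CPM in KO against 10.6 and 12.4 CPM in WT, giving -0.27 on the log2 scale (SE 0.15, adjusted p 0.283), the lowest of the open members. For ZNF616, the most accessible, the log2 fold change was 0.014 (SE 0.092).

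**Figure D3:**
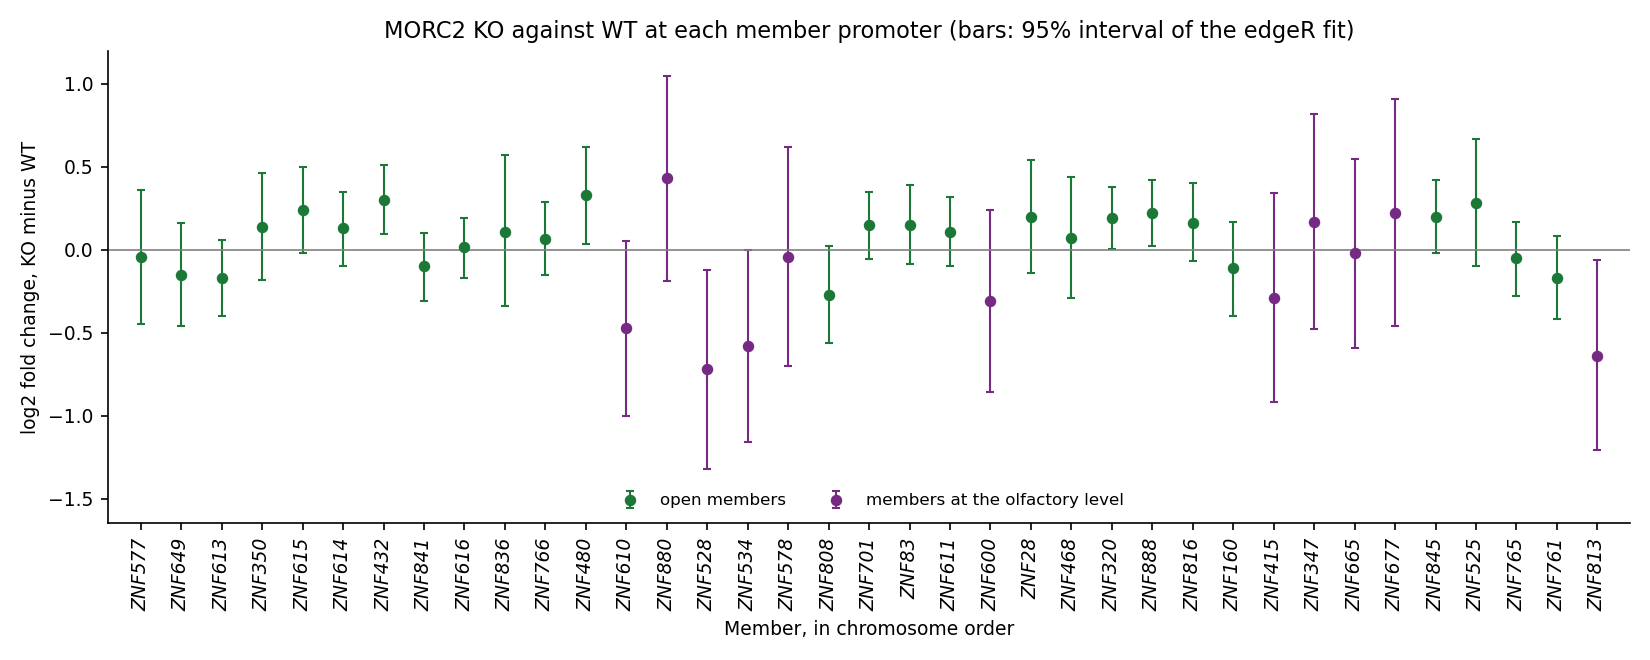
log2 fold change (KO minus WT) of each of the 37 members in chromosome order, with its 95% interval from the edgeR fit of 2 KO and 2 WT libraries. The point of ZNF432 is at 0.30 with an interval of 0.096 to 0.51, that of ZNF528 at -0.72 with one of -1.32 to -0.12, and no member passed adjustment over all promoters.

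The edgeR intervals were narrower for open members than for the rest. Their width rests almost wholly on a dispersion pooled over all promoters (1380 degrees of freedom). They say little of the spread between a member's own libraries. ZNF841 had 18.8 and 25.1 CPM in WT and an interval of -0.31 to 0.10. On leaving out a library its log2 fold change ran from -0.30 to 0.12. The median SE of the log2 fold change was 0.12 among the 26 open members and 0.304 among the 11 at the olfactory level. For 19 of the 26 open members the 95% interval stayed within 0.5 of zero on the log2 scale, compared with 0 of the 11. For 33 of all 37 it stayed within 1. A change of 0.5 could thus not be told from none at promoters such as ZNF880 and ZNF677, which held 10 to 44 fragments per library.

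Fold changes were higher at more accessible promoters, with Spearman's rho between mean CPM and log2 fold change of 0.246 over the 37 members and 0.537 over all tested promoters, as a description over promoters of the same libraries. Open members had a median log2 fold change of 0.12, with 18 of 26 above 0 (69.2%). Over all 20723 open promoters the median was 0.025, with 56% above 0. Open zinc finger promoters elsewhere on chromosome 19 had a median of 0.067, with 59.5% above 0. Those on other chromosomes had 0.093, with 78.4% above 0, so that values above 0 were not particular to the cluster. Members at the olfactory level had a median of -0.29, with 8 of 11 below 0. Over the 6924 tested promoters at or under the limit the median was -0.26, with 19% above 0. Over tested olfactory receptor promoters it was -0.28. Summed over the 11, the members at the olfactory level had 22.9 and 21.8 CPM in KO and 27.0 and 25.4 CPM in WT. The 26 open members summed to 402 and 390 CPM in KO and 354 and 393 CPM in WT, where WT replicate 1 stood apart and the groups overlapped. With offsets that follow abundance, the median of the members at the olfactory level was 0.0049, that of open members 0.14 and that of all promoters 0.0014. Without WT replicate 1 the median of open members was 0.017, and without WT replicate 2 it was 0.21. With total counts as the only scaling, which placed the median of all promoters at 0.12, the 2 medians were 0.26 and -0.14.

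**Figure D4:**
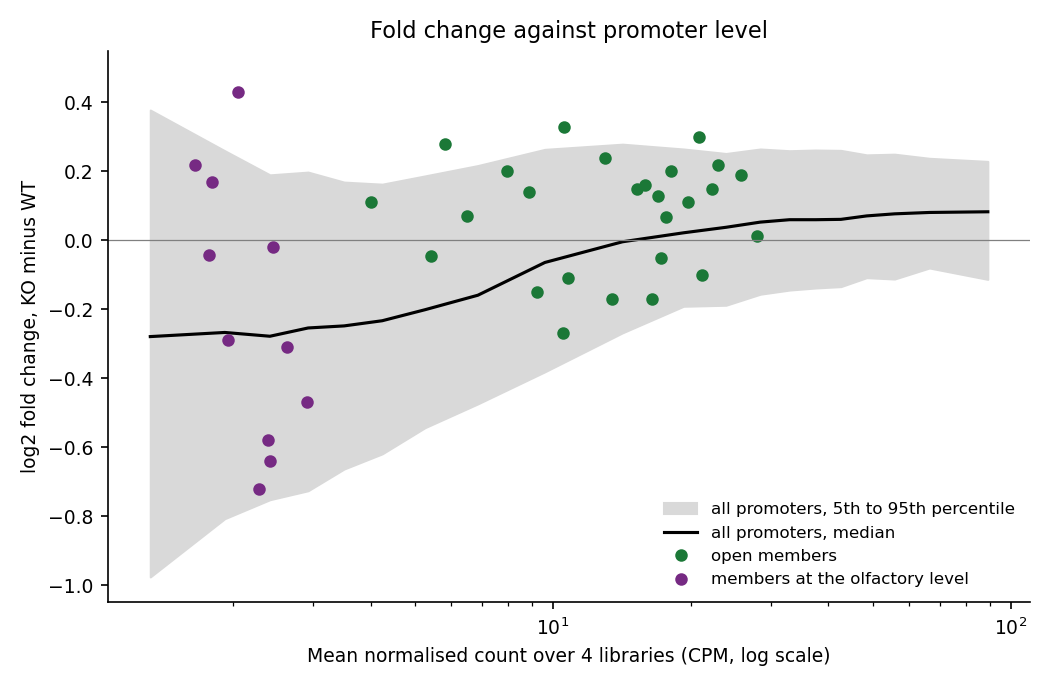
log2 fold change (KO minus WT) against mean CPM over 4 libraries (log scale), 1 point for each of 37 members. The black line and grey band give the median and the 5th to 95th percentile over all tested promoters in 20 classes of level; the median runs from -0.279 in the lowest class to 0.083 in the highest, and members lie on both sides of it.

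The KO pair was above the WT pair, without overlap, at 10 of the 37 members and below it at 8, against 25.2% and 25.4% of all tested promoters. All 10 were open, out of 26, where the share over open promoters was 32.2%. Of the 8 below, 5 were among the 11 at the olfactory level, where the share over promoters of that level was 42.3%. These shares lay near the background and are no result about the cluster.

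Rows interspersed with the members had no call. There were 20 such rows, 19 of them tested, and 0 passed the edgeR test, against 4.45% of all promoters. An unadjusted p under 0.05 was reached by 3, all lower in KO (background 8.87%). Not all of these rows are separate from the members. LOC122539214, ZNF816-ZNF321P, ZNF765-ZNF761 and TPM3P9 repeat a member's counts. ZNF649-AS1 and ZNF528-AS1 differ from a member by at most 1 fragment, and ZNF528-AS1 is 1 of the 3. PPP2R1A, which encodes the scaffold subunit of the phosphatase PP2A and lies between ZNF836 and ZNF766, had 744 and 1176 fragments in KO and 607 and 620 in WT. Its log2 fold change was 0.061 (SE 0.067, adjusted p 0.632), and its promoter was more accessible than that of any member. ZNF350-AS1 had the lowest adjusted p of these rows, 0.0822, with a log2 fold change of -0.84 on 18 and 28 fragments in KO and 32 and 23 in WT. The endogenous retroviral envelope genes ERVV-1 and ERVV-2 had log2 fold changes of -0.10 and -0.32. The pseudogenes ZNF137P, ZNF702P and ZNF818P were at the olfactory level, at -0.24, -0.073 and -0.79. Of the 20 rows on each side of the cluster 37 could be tested, all with log2 fold changes below 0 and a median of -0.36. Over all tested promoters 46.7% were above 0. In these flanks 1 row was called lower (background 0.995%). Of the 40 rows, 27 were at the olfactory level. The 24 of them that were tested had a median of -0.48. Over all promoters of that level the median was -0.26 and 19% were above 0.

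Zinc finger promoters outside the cluster were more accessible, with a median over promoters of 17.6 CPM elsewhere on chromosome 19 and 32.2 CPM on other chromosomes, compared with 10.5 CPM for the members, and so were measured on more fragments. Over all tested promoters edgeR called 4.45%, with 3.45% higher and 0.995% lower in KO. Of 208 tested zinc finger promoters elsewhere on chromosome 19, 13 were called higher and 6 lower (9.13% called). Their median log2 fold change was 0.0078. On other chromosomes 30 of 260 were called higher and 1 lower (11.9% called), with a median of 0.081. In that list 27 of 263 promoters were at the olfactory level, compared with 41 of 209 elsewhere on chromosome 19 and 11 of 37 in the cluster. The differences between these lists were not tested.

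KRAB zinc finger proteins silence through TRIM28, SETDB1, HP1 and chromatin remodellers, and MORC2 through HUSH, so the promoters of 18 such genes were examined. In edgeR 3 were called higher in KO and 0 lower, against 3.45% and 0.995% of all promoters, with 6 and 0 at an unadjusted p under 0.05, against 11.5% and 8.87%. All 18 lay above the olfactory limit, with a median of 43.2 CPM, where fold changes ran higher over all promoters. Of the 20723 open promoters 953 were called higher and 188 lower. TASOR, the scaffold of HUSH, had 441 and 678 fragments in KO and 285 and 267 in WT (log2 fold change 0.44, adjusted p 0.000124). MORC2 itself had 403 and 639 against 247 and 267 (0.43, adjusted p 0.000279), and a promoter count does not show the edit. For PPHLN1, the HUSH subunit periphilin, it was 0.26 (adjusted p 0.0394). TRIM28 and SETDB1, through which KRAB domains act, had -0.026 and -0.0063, with edgeR adjusted p-values of 0.872 and 0.972. With total count scaling and with DESeq2, 0 of the 18 were called, and without KO replicate 2 there was 1.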

How the data were processed

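ATAC-seq promoter counts of 2 MORC2 KO and 2 WT HEK293T libraries were analysed. Per the labels and the study's methods, the authors aligned trimmed read pairs to CHM13 with bowtie2, removed pairs of low mapping quality and duplicates (Picard), and deposited raw fragment counts per promoter, 1 row per NCBI Gene ID, without normalisation. The counter is not given with certainty in the sources used here. Filtering by mapping quality can remove fragments from near-identical promoters. The authors' WT peak list, on CHM13, was not used.

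RefSeq (GRCh38.p14) gave symbols for 28763 of 28775 IDs and the order of genes. Rows were filtered with filterByExpr (27647 kept), scaled by TMM and tested over the whole table with edgeR 4.0.16 in R 4.3.3 (legacy quasi-likelihood fit), without covariates, P-values being two-sided and adjusted by Benjamini-Hochberg with 0.05 as threshold. Standard errors were derived from the F statistics. Alternatives used DESeq2 1.42.0 and limma 3.58.1 among others. A chi-square of 1.26 (KO) and 1.40 (WT) per degree of freedom showed that replicates differed by more than sampling noise. The study describes the replicates as biological. An exact permutation of 2 against 2 could not pass the threshold. The procedure was tested on simulated data.

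Members and lists were chosen with earlier results of these data known. Per-library values are given for members with an adjusted p under 0.05, the 5 highest and 5 lowest fold changes, the 3 highest and 3 lowest WT levels and rows sharing counts; others were named after their values were seen. Promoter identity is the share of 300 bases matched in a global alignment (Biopython 1.88). Protein sequences were not analysed here, and some marker genes are not reported here.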

Additional observations from a re-analysis of the deposited data

How the results depend on the processing

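The count of members called, 0 higher and 0 lower, was 0 in all 18 alternative fits, 4 of which left out a library, and at an adjusted p under 0.01. At an adjusted p under 0.1 there was 1 higher, ZNF432. DESeq2 with its independent filter gave the members no adjusted p; the fit without that filter was chosen after seeing the data, as was the split of members by level. Over all promoters, 1229 calls became 20 with total count scaling, 388 with loess offsets, 787 at a mean count of at least 50, 6 with DESeq2, 7 with DESeq2 without its filter, 717 with limma-trend, 761 with thinned counts, and 2249 and 355 at adjusted p under 0.1 and 0.01. Leaving out each library gave 41 (without KO replicate 2) to 1637 (without WT replicate 1), and 230 without WT replicate 2. Of the corepressor list, 0 were called with total count scaling, 0 with DESeq2 with or without its filter, 5 at an adjusted p under 0.1 and 1 to 4 on leaving out a library, the lowest without KO replicate 2.

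Total count scaling placed the median of members at 0.21 and loess offsets at 0.14; leaving out 1 library at a time gave -0.0065 (without WT replicate 1) to 0.17 (without WT replicate 2). That of other rows in the interval was 0.04 with total counts, 0.052 with loess offsets, 0.026 at a mean count of at least 50, -0.25 with similar neighbours counted once and, on leaving out a library, -0.31 to -0.091. Other chromosome 19 zinc finger promoters had 0.15 with total counts and, on leaving out a library, -0.038 to 0.087. The cause was not tested, beyond the fewer rows in the filtered and merged fits.

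Adding the replicate number as a block left 765 promoters and 0 members called. The deviations of KO replicate 1 and WT replicate 1 from their group means correlated at 0.021. The labels give no batch, and 2 libraries per group cannot show whether same-numbered libraries share one. Of 21 named members 7 changed sign in some fit, none of them called. ZNF577 was 0.098 with total counts, 0.14 with loess offsets, 0.017 thinned, and -0.32 to 0.26 with a library left out. ZNF841 was 0.03 with total counts and -0.30 to 0.12 on leaving out a library. ZNF616 was -0.034 with loess offsets and -0.021 at a mean count of at least 50. ZNF765 was 0.089 with total counts, 8.9e-05 thinned and up to 0.0025. On leaving out a library ZNF600 ranged from -0.72 to 0.30, ZNF347 from -0.049 to 0.32 and ZNF677 from -0.014 to 0.49. For these sign changes, too, the cause was not tested.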
